A study of Mus musculus with 6 samples.

Results

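The transcripts of 44 genes that run mitosis were followed in colonic tumors of mice with a wildtype or a dimerization-deficient glucocorticoid receptor. The genes were taken by name from the 24797 rows of a gene count table, and all 44 names were found there once each. The table held 6 libraries of polyadenylated RNA, 3 from GRwt tumors and 3 from GRdim tumors, and every mouse had been given AOM/DSS. AOM is azoxymethane, which mutates the colonic epithelium, and DSS is dextran sulfate sodium, which wounds it and inflames the colon. GRwt mice carry the wildtype glucocorticoid receptor and GRdim mice a receptor deficient in dimerization, known as a point mutant in the DNA-binding domain that is present in every cell of the mouse. The labels give no age, sex or strain, no untreated or tumor-free colon was among the samples, and nothing states whether each tumor came from its own mouse, so that the p-values rest on variation among these tumor samples, which may be technical.

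Cells enter mitosis when cyclin-dependent kinase 1 is switched on by cyclins A and B. The chromosomes then attach to spindle microtubules through kinetochores built on the centromere, the spindle checkpoint holds back anaphase until attachment is complete, and the anaphase-promoting complex, a ubiquitin ligase, ends mitosis by destroying cyclin B and securin. Most of these genes are transcribed in a wave at the end of interphase, under the MuvB complex, which represses them as part of DREAM in resting cells and activates them together with B-Myb and FoxM1 in dividing ones. In the colon, dividing cells lie in the lower crypt, and in colonic tumors they spread through the tumor epithelium. In bulk tissue, such as these tumors, fewer dividing cells cannot be told apart from less RNA of these genes per cell.

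The libraries held 21132981 to 36222351 counts. Of these the 44 genes took 0.188%, 0.203% and 0.232% in the GRwt libraries, numbered 1 to 3, against 0.179%, 0.195% and 0.201% in the GRdim libraries, and their single counts ran from 120 to 11678. All 14 epithelial markers looked at, among them Epcam, were present and summed to 14160 to 22190 CPM over the GRwt libraries and 14180 to 17250 CPM over the GRdim libraries (CPM, counts scaled to a common library size after TMM normalization). Libraries differed in ways other than genotype. GRwt replicate 3 and GRdim replicate 1 have a T in their library names, whose meaning the labels do not give, and a ribosomal sequence took 2.51% and 2.05% of their counts against at most 0.0725% elsewhere. GRdim replicate 2 was the only library with Y-linked Ddx3y above 1 CPM, at 59.5 CPM. Its Xist, the RNA of the inactive X of females, stood at 0.255 CPM, against 517 to 1278 CPM in the others. By these genes it alone came from a male, so that the genotypes differed in sex through this 1 library. The part of sex in the mitosis genes was not tested. The genotype comparison of the mitosis genes is also given without the libraries with a T.

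Promoter sequence is a property that the choice by name did not use. In windows from 250 bases before to 50 bases after the RefSeq transcription start, 37 of the 44 genes had a match in the table used. The CHR core (cell cycle homology region, TTTGAA or TTCGAA on either strand), which the Lin54 subunit of MuvB binds, stood in the windows of 29 of the 37, or 78.4%. Over all 12785 genes of the genotype test with a window the share was 17.3%, and over all 27025 RefSeq genes with one it was 21.7%. The CCAAT box, bound by the factor NF-Y, stood in 26 of the 37, or 70.3%, against 42.1% of the genes in the genotype test and 41.1% of all. A window with both was found for 23 of the 37, or 62.2%, against 7.02% and 8.61%. The hexamer TGTTCT, an arm of the palindrome bound by receptor dimers, stood in 6 of the 37, or 16.2%, against 15.7% of the genes in the genotype test and 21.3% of all. Genes with more than 1 start had more than 1 window, and matches may overlap each other, as CCAAT and its reverse do in Ube2c. The shares are descriptions, and a match is not a site shown to be bound.

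Shown here are the windows of the 5 genes of highest mean CPM that held both motifs, since they show how the boxes sit together before the start. They are Mki67 (chr7:135716330-135716629, minus strand), Top2a (chr11:99024140-99024439, minus strand), Plk1 (chr7:122159185-122159484, plus strand), Bub3 (chr7:131560120-131560419, plus strand) and Ube2c (chr2:164769679-164769978, plus strand), from RefSeq on GRCm38.p6 and written from the 5′ end of the gene's strand. Capitals mark every CCAAT box and CHR core in either direction. The Mki67 window held 3 CCAAT boxes, whose first bases lie 188, 166 and 141 bases before the start, followed by 2 CHR cores at 116 and 98 bases before it. The Top2a window held 6 CCAAT boxes and 4 CHR cores, the last of them 23 bases before the start, and the Ube2c window 6 boxes and 1 core, 29 bases before it. In Plk1 the only core lies after the start, at base 31.
Mki67: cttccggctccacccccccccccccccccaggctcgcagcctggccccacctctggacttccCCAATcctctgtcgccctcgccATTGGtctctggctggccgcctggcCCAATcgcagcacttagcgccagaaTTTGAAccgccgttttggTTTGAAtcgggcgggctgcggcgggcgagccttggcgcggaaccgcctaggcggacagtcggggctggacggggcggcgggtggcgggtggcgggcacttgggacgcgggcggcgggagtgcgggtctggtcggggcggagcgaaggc
Top2a: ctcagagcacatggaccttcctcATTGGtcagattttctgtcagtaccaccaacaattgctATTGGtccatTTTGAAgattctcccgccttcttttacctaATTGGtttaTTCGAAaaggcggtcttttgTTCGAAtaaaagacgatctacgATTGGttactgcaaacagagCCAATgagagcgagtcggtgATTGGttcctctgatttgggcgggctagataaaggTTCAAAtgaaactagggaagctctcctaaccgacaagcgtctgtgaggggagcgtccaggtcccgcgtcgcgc
Plk1: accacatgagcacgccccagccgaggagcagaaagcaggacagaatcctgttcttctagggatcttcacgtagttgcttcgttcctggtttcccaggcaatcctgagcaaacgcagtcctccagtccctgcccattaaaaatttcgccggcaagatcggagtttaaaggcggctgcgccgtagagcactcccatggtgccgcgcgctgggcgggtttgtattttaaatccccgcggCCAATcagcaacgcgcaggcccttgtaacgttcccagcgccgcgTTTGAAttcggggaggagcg
Bub3: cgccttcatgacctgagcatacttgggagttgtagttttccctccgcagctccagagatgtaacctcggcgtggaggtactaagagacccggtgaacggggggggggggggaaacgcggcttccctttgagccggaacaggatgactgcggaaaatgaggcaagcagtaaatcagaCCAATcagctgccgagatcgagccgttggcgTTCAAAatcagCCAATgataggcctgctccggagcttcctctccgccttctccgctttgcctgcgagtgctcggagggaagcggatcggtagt
Ube2c: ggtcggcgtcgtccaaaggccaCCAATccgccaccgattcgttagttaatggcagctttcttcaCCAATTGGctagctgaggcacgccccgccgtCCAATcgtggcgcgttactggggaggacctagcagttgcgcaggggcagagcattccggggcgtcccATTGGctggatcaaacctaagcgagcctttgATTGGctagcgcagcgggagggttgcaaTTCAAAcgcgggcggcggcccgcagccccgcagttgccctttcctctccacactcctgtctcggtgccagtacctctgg

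**Figure D1:**
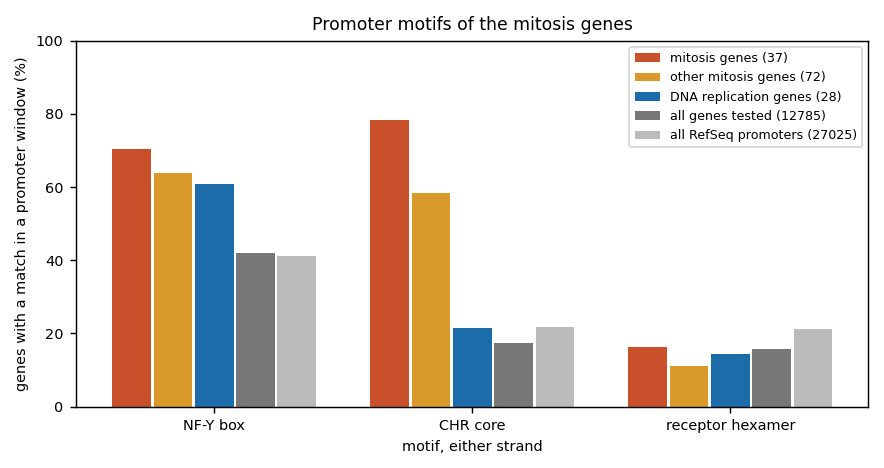
Share of genes (vertical axis, percent) whose promoter window holds each motif on either strand, for the mitosis genes, other lists, all genes of the genotype test and all RefSeq genes (number with a window in brackets; the NF-Y box is the CCAAT box, the receptor hexamer TGTTCT). The CHR core stands in 78.4% of the mitosis genes and 21.4% of the DNA replication genes, while the receptor hexamer stands in 16.2% and 14.3%.

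Levels between genes were compared as mean CPM per kilobase of exon, with lengths from GENCODE M21. Each length joins the exons of all annotated transcripts of a gene. It can exceed the length of the main mRNA, so that the order depends on this choice. By this measure the highest in GRwt tumors was Plk1, the Polo-like kinase that matures centrosomes and spindle poles, at 44.8 CPM per kilobase. Ube2c, the ubiquitin-conjugating enzyme of the anaphase-promoting complex, followed at 33.9, Ccnb2 (cyclin B2) at 33.8 and Cdc20, the activator of that complex, at 30.5 CPM per kilobase. Ccna2 (cyclin A2), Mki67 and Top2a stood at 21.8, 21.2 and 20.7. The lowest by this measure were the kinesins Kif18a and Kif14 and the centromere protein gene Cenpk, at 0.763, 1.16 and 1.18 CPM per kilobase. The order was almost the same in GRdim tumors, with a Spearman coefficient of 0.994 across the 44 genes, which are not independent replicates.

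Between the genotypes the mitosis genes differed little. In the edgeR quasi-likelihood fit 43 of the 44 had a negative log2 fold change, all fold changes being GRdim relative to GRwt, with a median of -0.18 and a range from -0.40 to 0.029. Over all 18756 genes tested 49.4% were negative and the median was 0.004, and over the 10966 tested genes within the mitosis genes' range of mean level, 5.74 to 192 CPM, 53.2% were negative with a median of -0.013. None of the 44 passed an adjusted p of 0.05 with edgeR, DESeq2 or limma-voom; of all genes edgeR called 0, or 0%, limma-voom 0 and DESeq2 33, or 0.187%. At an unadjusted p under 0.05 edgeR gave 1 lower and 0 higher of the 44, where 1.09% of all genes were lower and 1.79% higher. For 4 genes every GRdim library lay below every GRwt library, 9.09% of the 44, against 3.57% of all genes tested, and for 0 of them every GRdim library lay above, against 2.98% of all genes. With library sizes set by the counts of 14 epithelial markers, called epithelial scaling here, the median of all genes was 0.13, 29 of the 44 mitosis genes and 26.7% of all genes were negative, the median of the 44 was -0.064, and all 44 lay below the median of all genes. The 44 genes varied together, as described below, so that they are not 44 separate observations.

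The intervals of the main fit were taken for each gene separately, on the assumption that the libraries are independent. The GRdim libraries include a pair with the same number in their names, so that this assumption may not hold. The difference of the libraries with a T was not part of this fit. The counts that follow thus describe the fit and do not bound the genotype difference. The 95% interval of the log2 fold change excluded a 2-fold fall for 42 of the 44, the exceptions being Mki67 and Cenpe, and a 2-fold rise for all 44. It excluded a 1.5-fold fall for 8. Over all 18756 genes tested it excluded a 2-fold fall for 14171, a 2-fold rise for 12935 and a 1.5-fold fall for 8244. The part with a 1.5-fold fall excluded was thus smaller among the 44 than among all genes. The median standard error was 0.21, against 0.23 for tested genes in the same range of level and 0.29 for all genes tested.

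**Figure D2:**
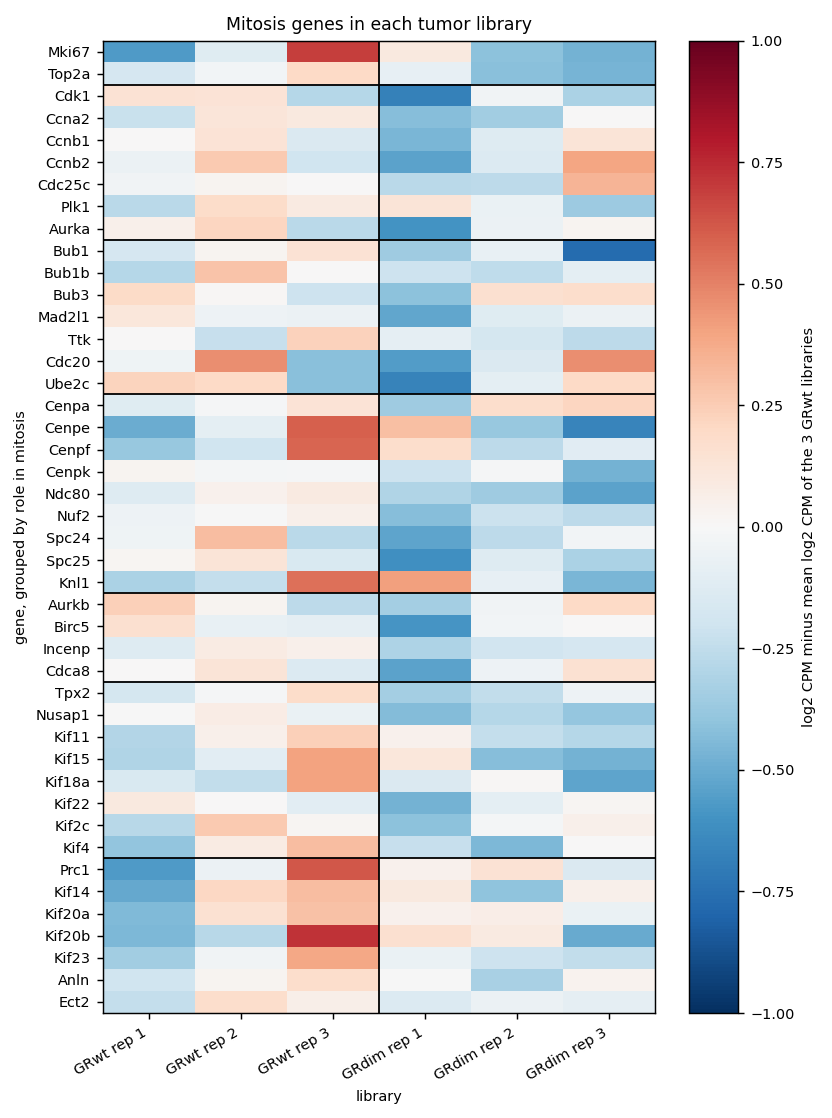
Color shows the log2 CPM of each mitosis gene (rows, grouped by role with black lines) in each library (columns) minus the gene's mean over the 3 GRwt libraries, from -1 to 1. GRwt replicate 3 holds the highest value of 20 genes and GRdim replicate 1 the lowest value of 22.

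**Figure D3:**
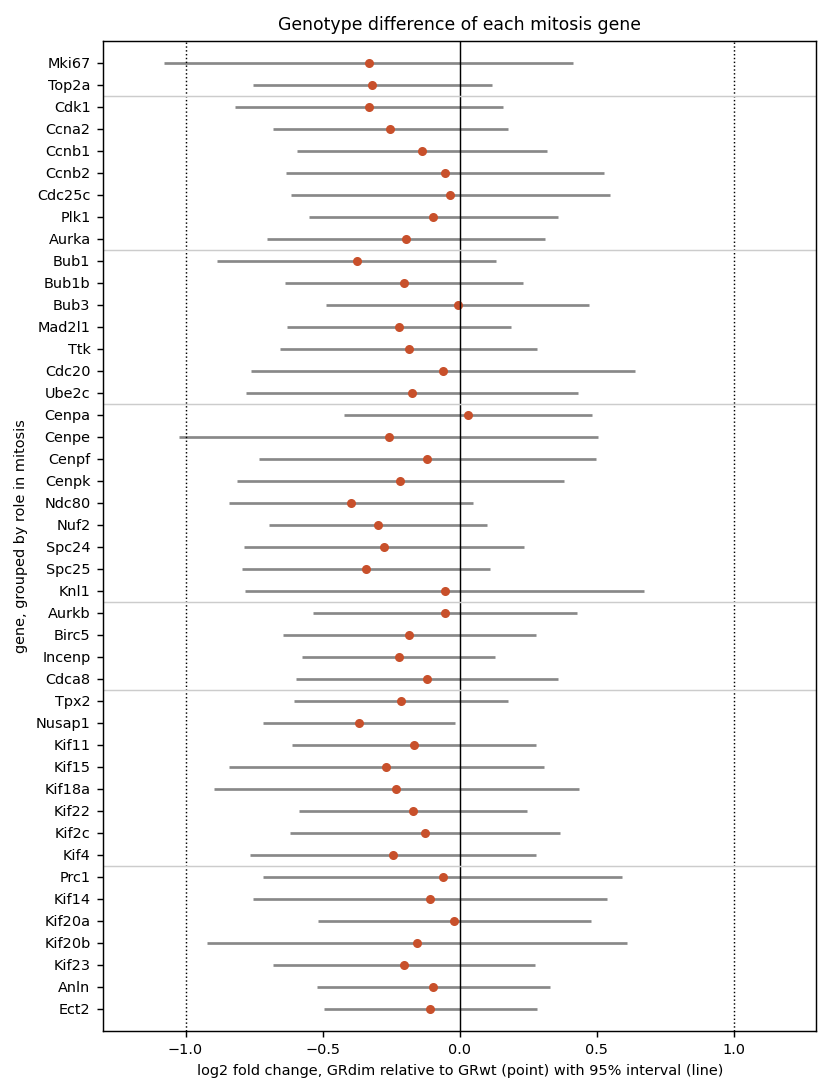
Log2 fold change of each mitosis gene in GRdim relative to GRwt tumors (points) with its 95% interval (lines), horizontal axis on the log2 scale with TMM scaling, dotted lines at a 2-fold change. Points lie between -0.40 and 0.029, and the interval of Nusap1 alone leaves out 0.

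The common markers of dividing cells showed how wide the spread within a genotype was. Mki67, which encodes the Ki-67 protein that coats mitotic chromosomes (chromosome 7, 135291513 to 135318090, minus strand, GRCm39), stood at 135, 184 and 323 CPM in the GRwt libraries, in the order of their replicate numbers, against 215, 151 and 144 CPM in the GRdim libraries. The highest value of each genotype was that of the library with a T in its name, and the lowest of all was a GRwt library. The log2 fold change was -0.33 with a standard error of 0.33. It became 0.073 when GRwt replicate 3 was left out and -0.11 among the 4 libraries without a T. Top2a, the topoisomerase that disentangles sister chromatids (chromosome 11, 98883769 to 98915015), stood at 165, 182 and 213 CPM in the GRwt libraries against 176, 139 and 135 CPM in the GRdim libraries. Its groups overlapped only through GRdim replicate 1, and the log2 fold change was -0.32 with a standard error of 0.19, or -0.34 without the libraries with a T.

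All 7 genes of mitotic entry were negative, with a median of -0.14, but with epithelial scaling Ccnb2, Cdc25c and Plk1 were positive and the median was -0.006. Under that scaling, here and for the roles that follow, the median of all genes was 0.135 and all 44 mitosis genes lay below it. Cdk1, the kinase that drives entry (chromosome 10, 69170976 to 69188768), had the smallest p of the 7. It stood at 73.3, 72.8 and 54.4 CPM in the GRwt libraries against 41.5, 64.5 and 53.3 CPM in the GRdim libraries. The lowest GRwt value lay between the GRdim values, and the log2 fold change was -0.33 with a standard error of 0.21. Its cyclin partners Ccna2, Ccnb1 and Ccnb2 had log2 fold changes of -0.25, -0.14 and -0.053. Cdc25c, the phosphatase that activates Cdk1, stood at 9.20, 9.61 and 9.43 CPM in the GRwt libraries against 7.82, 7.85 and 11.9 CPM in the GRdim libraries. The GRwt values were nearly equal and fell between those of GRdim replicates 2 and 3. Plk1 ranged from 80.8 to 111 CPM over the GRwt and from 76.1 to 107 CPM over the GRdim libraries, which is nearly the same span. The kinases Plk1 and Aurka (Aurora A, of the spindle poles) had log2 fold changes of -0.096 and -0.20, each no larger than its standard error of 0.20 and 0.22.

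The 7 genes of the spindle checkpoint and the trigger of anaphase were negative as well, with a median of -0.19, and with epithelial scaling Bub3 and Cdc20 were positive and the median was -0.054. Bub1, the checkpoint kinase of kinetochores (chromosome 2, 127643036 to 127673785), stood at 21.2, 24.2 and 26.2 CPM in the GRwt libraries against 18.6, 22.6 and 13.96 CPM in the GRdim libraries. GRdim replicate 2 lay inside the GRwt range, and the log2 fold change was -0.38 with a standard error of 0.22. Bub3, its binding partner, differed least of the 44: it stood at 97.9, 86.7 and 74.3 CPM in the GRwt libraries against 64.4, 96.0 and 96.9 CPM in the GRdim libraries, and only GRdim replicate 1 fell outside the GRwt range. Its log2 fold change was -0.008, with a 95% interval from -0.49 to 0.47. Bub1b, Mad2l1 and Ttk, whose products help to inhibit Cdc20 until the chromosomes are attached, had log2 fold changes of -0.20, -0.22 and -0.19. Cdc20 itself stood at 53.6, 76.0 and 41.3 CPM in the GRwt libraries against 37.5, 49.9 and 76.1 CPM in the GRdim libraries, so that the highest library of each genotype was the same to within 1 CPM. Ube2c had a log2 fold change of -0.17 with a standard error of 0.27.

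Centromere and kinetochore genes held the most negative value of the 44 and the only positive one, and had a median of -0.26, or -0.12 with epithelial scaling, where Knl1 was positive too. Ndc80, the microtubule-binding subunit of the outer kinetochore complex named after it (chromosome 17, 71803095 to 71833852), stood at 15.7, 17.8 and 18.4 CPM in the GRwt libraries against 14, 13.5 and 11.9 CPM in the GRdim libraries. Every GRdim library was below every GRwt library, with a log2 fold change of -0.40, a standard error of 0.19 and an adjusted p of 0.9999 in edgeR. Nuf2, its coiled-coil partner (chromosome 1, 169325503 to 169359033), stood at 21.4, 22.0 and 22.9 CPM in the GRwt libraries against 16.4, 19.0 and 18.4 CPM in the GRdim libraries, likewise without overlap, with a log2 fold change of -0.30 and a standard error of 0.17. Spc24 and Spc25, the 2 subunits that join this complex to the centromere, had log2 fold changes of -0.28 and -0.34. Spc25 stood at 24.7, 26.6 and 21.9 CPM in the GRwt libraries against 15.9, 22.2 and 19.6 CPM in the GRdim libraries, where GRdim replicate 2 alone reached the GRwt range, and Spc24 overlapped more widely. All 4 genes of this complex were thus lower in the mean of GRdim tumors, none past the test. Cenpa, the histone H3 variant that marks centromeres (chromosome 5, 30824121 to 30832174), was the gene with a positive value: 41.1, 44.2 and 49.0 CPM in the GRwt libraries against 34.9, 50.4 and 51.8 CPM in the GRdim libraries. GRdim libraries lay on either side of the GRwt range, and the log2 fold change was 0.029 with a standard error of 0.20, while among the 4 libraries without a T it was 0.26 with a standard error of 0.16. Cenpe, a kinesin that carries chromosomes to the spindle equator, Cenpf, Cenpk of the inner kinetochore and Knl1, the scaffold for checkpoint proteins, had log2 fold changes of -0.26, -0.12, -0.22 and -0.055.

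The chromosomal passenger complex corrects faulty attachments and later guides cytokinesis, and its 4 genes had a median of -0.15, or -0.033 with epithelial scaling, where Aurkb and Cdca8 were positive. Incenp, the scaffold of the complex (chromosome 19, 9849660 to 9876915), stood at 68.8, 79.5 and 77.7 CPM in the GRwt libraries against 60.6, 66.0 and 66.9 CPM in the GRdim libraries. The groups did not overlap, and the log2 fold change was -0.22 with a standard error of 0.15. Aurkb, the kinase of the complex, stood at 37.2, 32.3 and 26.3 CPM in the GRwt libraries against 25.0, 30.9 and 36.4 CPM in the GRdim libraries, nearly the same range in both. Birc5 (survivin) and Cdca8 (borealin), which dock the complex on centromeres, had log2 fold changes of -0.18 and -0.12.

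Among the 8 genes of spindle assembly and spindle motors, all negative with a median of -0.22, or -0.12 with epithelial scaling, where Kif2c was positive, Nusap1 had the smallest p of all 44. Nusap1 encodes a microtubule-bundling protein of the spindle (chromosome 2, 119448779 to 119481725) and stood at 47.7, 50.4 and 45.7 CPM in the GRwt libraries against 35.5, 39.3 and 36.7 CPM in the GRdim libraries. The groups did not overlap, and the spread within each was small, with means and SDs over 3 libraries of 47.9 ± 2.35 and 37.1 ± 1.97 CPM. Its log2 fold change was -0.37 with a standard error of 0.15, and the edgeR p was 0.042 before and 0.9999 after Benjamini-Hochberg adjustment over all genes. With each library left out in turn the log2 fold change stayed between -0.42 and -0.33, and the unadjusted p remained under 0.05 only without GRwt replicate 3. Kif2c, a kinesin that takes microtubule ends apart, had the largest p of these genes and stood at 19.8, 28.7 and 24.2 CPM in the GRwt libraries against 18.0, 23.7 and 24.8 CPM in the GRdim libraries, with overlapping groups. Tpx2, which activates Aurora A on the spindle, had a log2 fold change of -0.21. The motors Kif11 and Kif15, which push the spindle poles apart, Kif18a, which shortens microtubules at kinetochores, and the chromosome-arm motors Kif22 and Kif4 lay between -0.17 and -0.27, with standard errors between 0.18 and 0.29.

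The 7 genes of cytokinesis had the median nearest to 0 of the roles, at -0.11, and were all negative with TMM scaling. With epithelial scaling 5 were positive and the median was 0.018, below the 0.135 of all genes. Kif23, the motor of centralspindlin (chromosome 9, 61823187 to 61854056), stood at 48.4, 60.1 and 80.4 CPM in the GRwt libraries against 58.7, 53.4 and 51.8 CPM in the GRdim libraries. All GRdim values lay inside the GRwt range, and the log2 fold change was -0.20 with a standard error of 0.21. Kif20a, a motor that brings the passenger complex to the midzone, stood at 21.2, 32.1 and 35.5 CPM in the GRwt libraries against 29.7, 30.3 and 27.6 CPM in the GRdim libraries, again all inside the GRwt range. Prc1, which bundles midzone microtubules, stood at 23.7, 33.7 and 53.8 CPM in the GRwt libraries against 36.2, 38.7 and 31.7 CPM in the GRdim libraries, so that the GRwt libraries alone spanned more than 2-fold. Prc1, Kif14, Kif20b, Anln (anillin, of the contractile ring) and Ect2, the activator of RhoA at the cleavage site, had log2 fold changes between -0.16 and -0.063.

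The mitosis genes fell into 2 patterns across the 6 libraries that went with exon length, joined over all annotated transcripts of a gene. Across the libraries the median Pearson r of log2 CPM over the 946 pairs of these genes was 0.34, against -0.004 over all pairs of genes tested. Among the 15 genes of shortest exon length, 1531 to 4338 bases, it was 0.55, among the 15 longest, 6957 to 15433 bases, 0.73, and for pairs of a short with a long gene -0.098. These coefficients rest on 6 libraries that share differences in depth and composition, and are descriptions; they were not computed without the libraries with a T, which leave 4. The patterns parted in the libraries with a T in their names, and what sets these libraries apart was not tested. Relative to the other GRwt libraries, GRwt replicate 3 had a median log2 difference of 0.59 for the long genes, 13 of 15 being higher, and of -0.21 for the short ones, 10 of 15 being lower. Relative to the other GRdim libraries, GRdim replicate 1 had medians of 0.31 and -0.39, with 13 of 15 long genes higher and 13 of 15 short ones lower.

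Cenpe and Ube2c show the patterns, and were chosen after their values were seen. Cenpe, with 8620 bases of exon, stood at 25.7, 34.0 and 54.9 CPM in the GRwt libraries, in the order of their replicate numbers, against 44.9, 28.0 and 22.9 CPM in the GRdim libraries. Ube2c, with 2600 bases, stood at 101, 99.1 and 64.5 CPM in the GRwt libraries against 54.2, 80.7 and 99.05 CPM in the GRdim libraries. Cenpe was thus highest, and Ube2c lowest, in the library with a T in each genotype. Bub3 (7006 bases) and Plk1 (2199 bases) went against the pattern, with differences of -0.31 and 0.14 in GRwt and -0.58 and 0.34 in GRdim. Across the 44 genes the Spearman coefficient between exon length and the difference was 0.73 in GRwt and 0.65 in GRdim. Across the 18308 tested genes with a length it was 0.33 and 0.31, so that the relation was not limited to mitosis genes. Exon length had little relation to the genotype difference, with a coefficient of -0.080 across the 44 genes, and the 15 shortest and 15 longest genes had medians of -0.18 and -0.17.

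**Figure D4:**
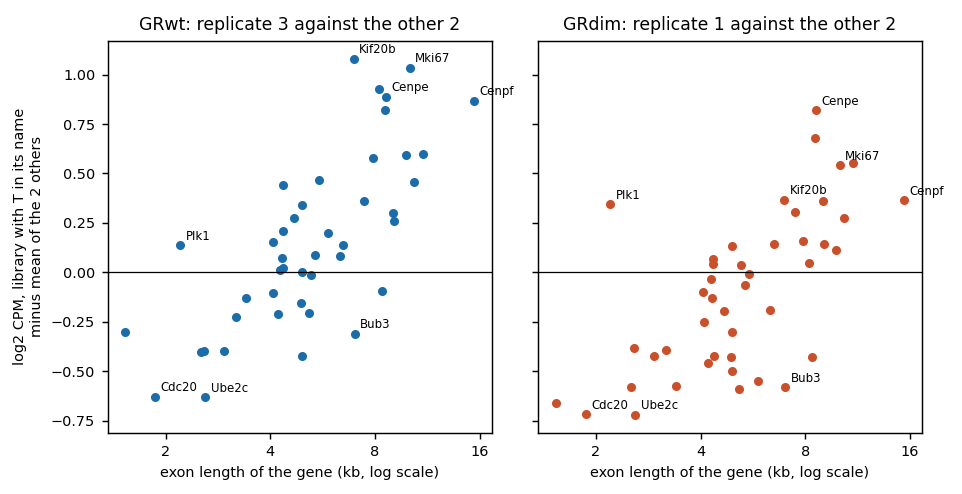
Log2 CPM of each mitosis gene in the library with a T in its name minus its mean in the other 2 libraries of the genotype (vertical axis), against exon length in kilobases (horizontal axis, log scale), for GRwt (left) and GRdim (right). Short genes such as Cdc20 lie at -0.63 and -0.72 and long ones such as Cenpe at 0.89 and 0.82.

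Since each genotype held 1 library with a T, the genotypes could be compared within and across these libraries. Between the libraries with a T alone 43 of the 44 genes were lower in GRdim, with a median of -0.34. This comparison of 1 library with 1 allows no test and was added after the data were seen. The share of all genes that were lower in this pair is not given here, so that the count has no background. Among the 4 libraries without a T, 34 of the 44 were negative with a median of -0.081, where 50.5% of all genes were negative, and 0 had an edgeR p under 0.05 before adjustment, where 2.9% of all genes did so and were lower and 3.38% did so and were higher. With the T as a covariate over all 6 libraries 42 were negative, the median was -0.18, and 5 genes were lower at an unadjusted p under 0.05 in edgeR, namely Top2a, Cdk1, Ndc80, Spc25 and Nusap1, where 2.1% of all genes were. None of the 5 passed after adjustment, the smallest adjusted p being 0.944. The log2 fold changes of Ndc80 and Nusap1 were -0.40 and -0.37 among the 4 libraries without a T.

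Averaged over the 44 genes as log2 CPM relative to the GRwt mean, the GRwt libraries had values of -0.15, 0.046 and 0.10, against -0.24, -0.15 and -0.14 for the GRdim libraries. GRwt replicate 1 thus lay among the GRdim libraries, and GRdim replicate 1 was the lowest. In GRwt replicate 1 18 of the genes were below their GRdim mean. Without GRwt replicate 1 the median log2 fold change of the 44 genes was -0.27, and without GRwt replicate 3 it was -0.16. The tumors also differed in what else they held. On the same scale the 14 epithelial markers had means of -0.001, 0.38 and -0.38 against -0.33, -0.12 and -0.11, and all 14 had negative log2 fold changes with a median of -0.20. With epithelial scaling 0 of the mitosis genes had an unadjusted p under 0.05 in edgeR, where 0.352% of all genes did so and were lower and 1.91% did so and were higher, and no member of the 44 passed after adjustment.

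Markers of other cell types moved with the genotype or with single libraries. Neutrophil markers, all 9 that were measured being negative with a median of -1.51, summed to 159.9 to 310.4 CPM over the GRwt libraries and 114 to 194 CPM over the GRdim ones, and 1 more marker on that list was not analysed here. Smooth muscle markers, all 10 positive with a median of 1.20, summed to 1292 to 1492 CPM against 1245 to 6518 CPM, with GRdim replicate 3 the highest and GRdim replicate 2 the lowest. All 10 B cell markers were positive, and they summed to 15.6 to 181 CPM against 50.7 to 200.1 CPM.

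The germinal centre list, whose cells divide, had 4 positive and 3 negative genes and summed to 54.4 to 57.2 CPM against 47.9 to 65.0 CPM. Of its 8 markers 2 were under 1 CPM in every library. As mean log2 CPM relative to the GRwt mean, it stood at -0.105, -0.092 and 0.197 in the GRwt libraries. In the GRdim libraries these means were 0.014, 0.567 and -0.044. Adipocyte markers, with 7 of 7 tested positive, summed to 20.04 to 68.9 CPM against 23.7 to 231 CPM, and squamous markers, with 5 of 5 tested positive, to 75.8 to 136 CPM against 73.5 to 873 CPM. The squamous rise lay in GRdim replicate 3 alone. As mean log2 CPM relative to the GRwt mean, the tested squamous markers stood at -0.205, -0.194 and 3.255 in GRdim replicates 1 to 3. Fibroblast markers, 6 of 8 positive, summed to 1553 to 2222 CPM against 988 to 2431 CPM, and endothelial ones, 5 of 7 positive, to 104 to 182 CPM against 98.7 to 225 CPM. T cell markers, 8 of 9 positive, summed to 26.1 to 34.9 CPM against 33.1 to 47.1 CPM, and macrophage markers, 8 of 10 negative, to 609 to 967 CPM against 534 to 775 CPM. No marker of these lists that was in the table was at 0 in all libraries, and the part of these differences in the level of the mitosis genes was not tested.

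**Figure D5:**
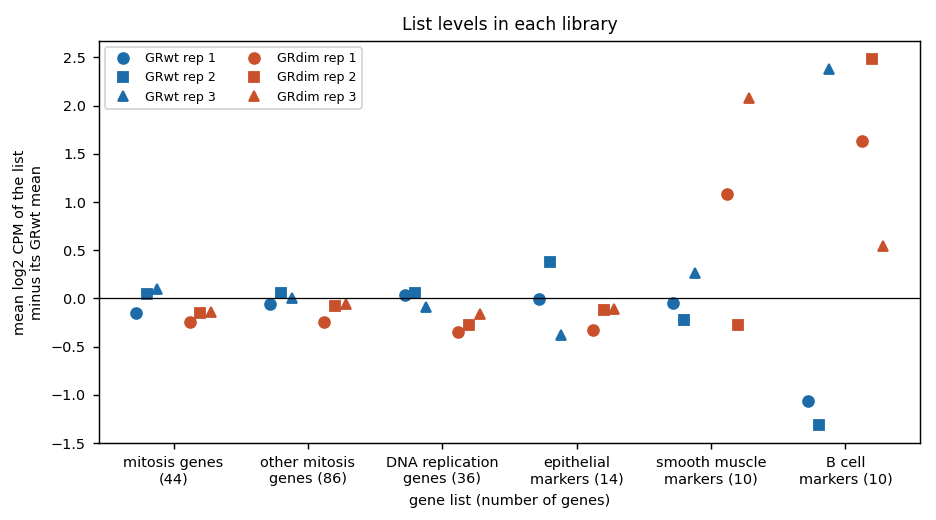
Mean log2 CPM of 6 gene lists in each library minus the list's mean over the 3 GRwt libraries (vertical axis, log2 scale; number of genes in brackets; blue GRwt, orange GRdim, shape for the replicate). The mitosis genes span -0.24 to 0.10, while B cell markers span -1.31 to 2.48 and smooth muscle markers -0.27 to 2.08.

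Of 86 further mitosis genes 69 were negative and 17 positive, with a median of -0.085. With epithelial scaling the median was 0.03, against 0.135 for all genes. None of the 86 passed after adjustment in edgeR and none had an unadjusted p under 0.05. In 11 of them, or 12.8%, every GRdim library was below every GRwt library, against 3.57% of all genes tested. Ncaph, a condensin subunit, stood at 34.1 ± 2.85 CPM against 27.2 ± 0.741 CPM in GRdim, Cenpn, which reads Cenpa nucleosomes, at 9.78 ± 0.677 against 7.11 ± 0.998 CPM, and Cep55, of the midbody, at 34.8 ± 2.22 against 28.0 ± 2.13 CPM (mean ± SD, n = 3 per group). Of the 14 subunits of the anaphase-promoting complex 10 were negative and 4 positive, with a median of -0.064. Anapc5 and Anapc13, subunits of the complex, had log2 fold changes of 0.22 and -0.27, and Anapc10, which helps it to hold substrates, -0.17.

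Foxm1, the factor that activates these genes late in the cycle, stood at 29.6, 41.7 and 34.5 CPM in the GRwt libraries against 25.5, 30.8 and 33.9 CPM in the GRdim libraries, with a log2 fold change of -0.23 and a standard error of 0.20. Mybl2, the gene of B-Myb, stood at 10.2, 10.4 and 12.6 CPM in the GRwt libraries against 11.6, 9.58 and 11.0 CPM in the GRdim libraries, with a log2 fold change of -0.042. Over the 20 DREAM, MuvB and E2F genes 13 were negative and 7 positive, with a median of -0.044. E2f8, a repressor of E2F targets, stood at 22.9, 21.7 and 21.7 CPM in the GRwt libraries against 17.1, 14.1 and 12.4 CPM in the GRdim libraries, without overlap. Its log2 fold change of -0.61 had a standard error of 0.20 and an edgeR adjusted p of 0.9999, and it was the 1 gene of this list with an unadjusted p under 0.05. Of all genes tested 1.09% were lower at that unadjusted p. Every GRdim library was below every GRwt library for 3 of the 20, against 3.57% of all genes tested. E2f1, an activator of S phase genes, had a log2 fold change of -0.45 with a standard error of 0.24. Of the 10 G1 cyclins and kinases 6 were negative, with Ccne1 (cyclin E1) at 15.8 ± 3.18 against 10.6 ± 1.52 CPM and no overlap. In this list 1 of 10 was lower without overlap, and 1 of 10 was lower at an unadjusted edgeR p under 0.05. Ccnd3 and Ccne2, further G1 cyclins, had log2 fold changes of -0.22 and -0.28. The 11 inhibitors of the cycle, 8 negative and 3 positive, had a median of -0.10, and those of smallest p were Gas1, Cdkn2b and Cdkn2a with log2 fold changes of 0.73, -0.29 and -0.53, each with an unadjusted edgeR p above 0.05.

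DNA replication genes, used in S phase before mitosis, had a median of -0.30, or -0.16 with epithelial scaling, and 35 of 36 were negative. In 17, or 47.2%, every GRdim library was below every GRwt library, against 3.57% of all genes tested. The corresponding values of the mitosis genes were -0.18, 43 of 44 and 9.09%. Whether the 2 lists differ was not tested. None of the replication genes passed after adjustment in edgeR. Of all genes 1.09% were lower at an unadjusted edgeR p under 0.05, and of the replication genes 3 were. They were Mcm2 and Mcm3, of the ring of the replicative helicase, with log2 fold changes of -0.37 and -0.48, and Cdc45, which activates it, with -0.54. Cdc45 had a mean of 16.6 ± 1.82 CPM against 11.4 ± 1.14 CPM in GRdim (SD, n = 3 per group). In the promoter windows, the CHR core stood in 21.4% of the 28 replication genes with a window and in 58.3% of the 72 further mitosis genes.

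Reads of some mitosis genes may be shared with neighbours, because the strand setting of the counting is not given in the sources used here. By the deposited positions, 16 of the 44 overlapped another gene, and for 11 an opposite-strand gene held at least 10% as many counts. Among them were Nusap1 with Oip5 (12.6%), Bub3 with Fgfr2 (91.7%), Cdc20 with Elovl1 (197%), Cenpk with Ppwd1 (401%) and Kif20a with Cdc23 (135%). A pseudogene of Ccnb2, listed as its own row, held 264 counts over all libraries.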

How the data were processed

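Polyadenylated RNA of 6 colonic tumors was sequenced with the Illumina Stranded mRNA kit. Per the submitters' processing notes, the authors used bcl2fastq 2.20.0.422, Trim Galore, FastQC, MultiQC, STAR 2.7.8a, featureCounts of Subread 1.5.0, DESeq2 1.40.2 and the build GRCm39. The values deposited by the authors are raw counts of reads for each gene, not normalized; the annotation release is not given in the sources used here. Columns were matched to samples by library name.

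Genes were tested with edgeR 4.0.16 in R 4.3.3 (quasi-likelihood F test, TMM, default filter on low counts, robust dispersions), leaving 18756 genes; p was adjusted by Benjamini-Hochberg over all of them. The standard error is the log2 fold change over the square root of F, and intervals use the fit's degrees of freedom. Log2 CPM used a prior count of 2. Intervals cover the spread between libraries. The procedure was run on simulated independent libraries with planted changes larger than those of the mitosis genes. The simulation held no difference of the libraries with a T, so that it cannot show how the intervals hold in these data.

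The genes, lists and alternatives were chosen with earlier results of these data known. Values in every library are given for Mki67, Top2a, the genes of smallest and largest p of each role and those without overlap, plus others for the length pattern, chosen after their values were seen; in other lists up to 3 genes of smallest p are named. Alternatives were DESeq2 1.42.0, limma-voom of limma 3.58.1, other size factors, no filter, the T as a covariate, subsets of libraries and the replicate number as a block.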

Additional observations from a re-analysis of the deposited data

How the results depend on the processing

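The count of mitosis genes past an adjusted p of 0.05 was 0 under all 15 alternatives that allow a test, as it was for all genes except with DESeq2, which called 33 of them. Under DESeq2, relative log expression size factors and no filter on low counts no mitosis gene changed direction. The direction of single genes, none of which passed the test, was less stable, and the cause of the reversals was not tested. Log2 fold changes that turned sign were, with limma-voom and sample weights, Bub3 0.018, Knl1 0.005, Prc1 0.138, Kif20a 0.048 and Kif20b 0.064. With epithelial marker counts as the library size the median was -0.064, 0 genes had an unadjusted p under 0.05, and the reversed values were Ccnb2 0.082, Cdc25c 0.08, Plk1 0.056, Bub3 0.117, Cdc20 0.102, Knl1 0.044, Aurkb 0.078, Cdca8 0.008, Kif2c 0.005, Prc1 0.015, Kif14 0.018, Kif20a 0.1, Anln 0.025 and Ect2 0.03. Under that epithelial scaling the median of all genes was 0.135, and all 44 mitosis genes lay below it. With the T of the library names as a covariate 5 genes had an unadjusted p under 0.05 and Prc1 0.006 was reversed. Among the 4 libraries without a T the median was -0.081, the count at an unadjusted p under 0.05 was 0, and the reversed values were Ccnb2 0.045, Cdc25c 0.069, Bub3 0.061, Cenpf 0.1, Knl1 0.017, Kif2c 0.002, Prc1 0.296, Kif20a 0.12 and Kif20b 0.18. Between the 2 libraries with a T, compared after the data were seen, the median was -0.343, with Plk1 0.04 and Cenpa -0.49 reversed.

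GRdim replicates 1 and 3 carry the same number in their library names, and when they were summed as 1 sample 0 mitosis genes had an unadjusted p under 0.05 and Bub3 0.025 was reversed. Of all genes 1.07% were lower at an unadjusted edgeR p under 0.05 in that fit. The labels do not say whether the replicate numbers pair the samples. The deviations of same-numbered libraries correlated at -0.39, 0.03 and -0.432, and those of the libraries with a T, GRwt replicate 3 and GRdim replicate 1, at 0.45. These values cannot decide on pairing, because the difference of the libraries with a T enters them. With the replicate number as a block 0 mitosis genes had an unadjusted p under 0.05 in edgeR, 41 were lower, the median was -0.185, and Prc1 0.017 and Kif20a 0.011 were reversed. Of all genes 49.9% were lower in the fit with the block, and 0.8% were lower at an unadjusted edgeR p under 0.05.

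Leaving out 1 library in turn, the genes lower in GRdim numbered 35 to 42, the median lay between -0.273 and -0.157, and 0 to 1 genes had an unadjusted p under 0.05, namely Nusap1 without GRwt replicate 3 and Bub1 without GRdim replicate 2. Of all genes 48.5% to 50.9% were lower in these fits, and 0.617% to 2.58% were lower at an unadjusted edgeR p under 0.05. The most reversals, 8 and 7 of 44, came without GRwt replicate 3 and without GRdim replicate 1. The ranges of the genes that changed sign were Mki67 -0.577 to 0.073, Ccnb2 -0.339 to 0.139, Cdc25c -0.268 to 0.066, Plk1 -0.222 to 0.019, Bub3 -0.127 to 0.158, Cdc20 -0.385 to 0.2, Ube2c -0.388 to 0.027, Cenpa -0.073 to 0.188, Cenpe -0.587 to 0.078, Cenpf -0.297 to 0.213, Knl1 -0.316 to 0.257, Aurkb -0.199 to 0.071, Cdca8 -0.279 to 0.05, Kif2c -0.256 to 0.011, Prc1 -0.303 to 0.291, Kif14 -0.324 to 0.031, Kif20a -0.211 to 0.115, Kif20b -0.367 to 0.283 and Anln -0.192 to 0.007. With 3 samples a genotype, an exact permutation test cannot go below a two-sided p of 0.1. Every mitosis gene had at least 120 counts in each library.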
